A study of Mus musculus with 41 samples.

Results

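Germinal center identity genes are described here as 9 genes chosen by name: Bcl6, Mybl1 and Eaf2, which act in transcription, S1pr2, Gna13, Rgs13 and Plxnb2, which act in positioning and guidance, and Gcsam and Fas, an adaptor and a death receptor. They were chosen with earlier results of these data known, so counts of called members set against all genes describe them and are no test. They are 9 of the 50763 genes in the count table, and each of them had a row both there and in the TPM table. Bulk libraries of polyadenylated RNA were made from sorted splenic B cells of mice 3 to 5 months old. The mutant genotype, labelled 1Mek2, carried floxed Mek1 alleles on both chromosomes, a single intact Mek2 allele (Mek2+/-) and the Vav1-iCre transgene, whose Vav1 promoter is active across blood cell lineages and so is not limited to B cells. The other genotype, labelled wt, was wild type. Both MEK kinases phosphorylate ERK, and the study set out to measure how loss of Mek1 and Mek2 alters transcription in splenic B cells.

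The libraries labelled 1Mek2 and those labelled wt numbered 4 and 4 in germinal center B cells (GC; sorted as B220+CD93-CD138-GL7+FAS+), 3 and 3 in immature B cells (Immature; B220+CD93+CD138-), 3 and 3 in age-associated B cells (ABC), 4 and 4 in follicular B cells (Follicular; GL7-FAS-CD21+CD23+), 3 and 3 in marginal zone B cells (MarginalZone; GL7-FAS-CD21+CD23-) and 3 and 3 in plasma cells (Plasma; B220+CD138+). The sorting gate of the ABC cells is not given in the sources used here. An Immature library whose name reads Mek1ff although its label reads 1Mek2 was left out, so that 40 of 41 libraries were used. The GC library of the same animal is labelled wt, has the same name and was kept as GC wt replicate 4. By the numbers in their names, the 40 libraries came from 16 animals, and the libraries of a group came from different animals. In each genotype 3 animals gave both a GC and an Immature library.

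A germinal center is the site in a B cell follicle where activated B cells divide, mutate their antibody genes and are selected by antigen and T cell help. BCL6, a transcriptional repressor, is required for the germinal center B cell state and holds back plasma cell differentiation. Sphingosine-1-phosphate receptor 2 (S1PR2), acting through the G protein subunit that Gna13 encodes, keeps germinal center B cells clustered in the follicle.

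Bcl6 lies at chr16:23780058-23807602 on the minus strand (GRCm39, as are all positions in this paragraph). Mybl1, which encodes the transcription factor A-MYB of germinal center B cells, lies at chr1:9737632-9770664 on the minus strand. Eaf2, whose protein binds the ELL transcription elongation factors, spans chr16:36613246-36695275 on the minus strand and wholly contains the oppositely oriented gene Iqcb1, so 45323 bases of it are shared. S1pr2 lies at chr9:20877248-20888089 on the minus strand. Gna13 lies at chr11:109253620-109292195 on the plus strand and shares 861 bases with Gm11696. Rgs13, which encodes a protein that shortens the active state of G proteins, lies at chr1:144013083-144053240 on the minus strand. Plxnb2, which encodes plexin B2, a receptor for class 4 semaphorins, lies at chr15:89039752-89064960 on the minus strand. Gcsam, which encodes an adaptor of B cell receptor signaling and motility, lies at chr16:45430803-45443230 on the plus strand. Fas, which encodes the death receptor whose protein was itself a sorting marker, lies at chr19:34267926-34305175 on the plus strand. Iqcb1 had 0 counts in every library while its exons held 11 to 2677 reads, so counts inside the Eaf2 span cannot be assigned to 1 of the genes.

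Promoter sequence was taken from RefSeq windows (build GRCm38.p6) of 300 bases, from 250 bases before to 50 bases after an annotated start. These were found for 8 of the 9 members, in 12 windows. All are printed 5′ to 3′ in the direction of their gene. Short motifs of factors known in germinal centers were searched on both strands: TTCNNNGAA, the core shared by BCL6 and STAT binding sites; ATGCAAAT, the octamer; the E-boxes CAGGTG and CAGCTG; and the MEF2-type CTATTTATA and TTATTTATA. The 4 windows below hold such matches, which are in capitals, and no match overlaps another. Bcl6 window 1, Plxnb2 window 2 and Eaf2 windows 2 and 3 hold matches too and are not shown.

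Bcl6 window 2, chr16:23981234-23981533, minus strand: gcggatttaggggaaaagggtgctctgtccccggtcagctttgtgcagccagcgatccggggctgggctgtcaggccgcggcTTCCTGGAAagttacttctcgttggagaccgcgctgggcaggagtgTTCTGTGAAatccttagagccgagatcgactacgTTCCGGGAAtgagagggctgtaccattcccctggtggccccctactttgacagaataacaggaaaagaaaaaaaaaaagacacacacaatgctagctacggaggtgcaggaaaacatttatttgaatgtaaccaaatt

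Fas window 1, chr19:34290409-34290708, plus strand: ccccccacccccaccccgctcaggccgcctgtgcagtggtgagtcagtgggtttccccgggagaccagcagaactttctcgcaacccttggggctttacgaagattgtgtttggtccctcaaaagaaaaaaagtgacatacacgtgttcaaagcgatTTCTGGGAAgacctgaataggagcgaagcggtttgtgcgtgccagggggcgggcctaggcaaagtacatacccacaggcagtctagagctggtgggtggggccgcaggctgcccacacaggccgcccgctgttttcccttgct

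Eaf2 window 1, chr16:36874777-36875076, minus strand: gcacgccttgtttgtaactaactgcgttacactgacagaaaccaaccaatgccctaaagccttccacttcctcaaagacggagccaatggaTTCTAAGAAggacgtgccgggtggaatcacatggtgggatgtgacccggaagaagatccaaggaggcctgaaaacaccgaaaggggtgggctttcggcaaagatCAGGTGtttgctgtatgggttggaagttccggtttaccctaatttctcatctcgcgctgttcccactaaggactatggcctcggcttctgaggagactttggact

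S1pr2 window 1, chr9:20976744-20977043, minus strand: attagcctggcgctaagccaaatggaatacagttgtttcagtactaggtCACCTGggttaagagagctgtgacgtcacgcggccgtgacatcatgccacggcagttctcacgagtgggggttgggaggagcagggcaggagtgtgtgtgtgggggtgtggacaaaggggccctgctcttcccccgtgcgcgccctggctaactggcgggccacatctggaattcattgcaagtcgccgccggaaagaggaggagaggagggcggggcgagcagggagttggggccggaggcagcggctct

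TTCNNNGAA was present in 4 of the 12 member windows, those being 1 of Fas, 1 of Eaf2 and the 2 of Bcl6, and in 8.3% of 32851 mouse windows of the same length. The second Bcl6 window held it 3 times, with first bases at -168, -122 and -88 from the start, the Fas window at -93 and the Eaf2 window at -159. CAGGTG was present in 4 of 12 member windows, against 20.2% of all windows; in the S1pr2 window it is read on the opposite strand, as CACCTG, at -201. CAGCTG was present in 1 of 12, against 16.3%, and TTATTTATA in 1 of 12, against 0.554%. ATGCAAAT (1.74% of all windows) and CTATTTATA (0.429%) were in none of the 12. A match is a description of the letters and not of a bound site.

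Libraries held 7883989 to 34925667 counts in all. Counts covered each gene from start to end, introns included, while TPM came from exons; the ratio of exon reads to gene-span counts ran from 40.1% to 50.3% in wt ABC libraries and from 51.0% to 131% in the others. Immature and GC libraries had reads on 21512 to 35644 genes, and the other libraries on 17008 to 23409. Mek1 (Map2k1) had 156 to 237 CPM in GC libraries labelled 1Mek2 and 99.4 to 243 CPM in wt GC libraries. Gene-span counts do not isolate the floxed part, so they do not check the label. Mek2 (Map2k2) was higher in every GC library labelled 1Mek2, at 59.4 to 108 CPM, than in every wt GC library, at 36.8 to 56.5 CPM. Such a separation was found for 535 of 16681 genes tested, and its cause was not tested. The Y-linked gene Ddx3y was detected at 12.1 to 85.8 CPM of exon reads in animals 634 and 654 (1Mek2) and 562 (wt), which gave ABC, Follicular, MarginalZone and Plasma libraries and no GC or Immature library. Levels within a gene are given as CPM, counts set to a common library total and scaled by TMM over the 40 libraries, and levels between genes as TPM, which is per length. A gene was called when its Benjamini-Hochberg adjusted p in edgeR's quasi-likelihood test, over all genes tested in that comparison, was under 0.05; the errors of log2 fold changes are standard errors (SE). The 5 comparisons of GC with other subsets in a genotype share their GC libraries. In bulk RNA, fewer cells of a type and less RNA per cell cannot be told apart.

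Within the GC libraries the members differed in abundance per length. In GC libraries labelled 1Mek2 Gcsam led at 475 ± 196 TPM, before Eaf2 at 303 ± 153, Fas at 253 ± 39.6, Rgs13 at 203 ± 55.9 and S1pr2 at 132 ± 36.7 TPM (SD, n = 4 here and in the next 2 sentences). Bcl6 at 73.1 ± 35.8, Gna13 at 67.9 ± 12.7, Mybl1 at 42.4 ± 18.8 and Plxnb2 at 23.5 ± 8.31 TPM followed. In wt GC libraries Rgs13 led at 461 ± 187 TPM, before Gcsam at 366 ± 90.6, Fas at 271 ± 69.8, Eaf2 at 215 ± 39.6, Bcl6 at 154 ± 63.2, S1pr2 at 146 ± 19.5, Mybl1 at 134 ± 44.1, Gna13 at 97.4 ± 29.2 and Plxnb2 at 35.0 ± 9.73 TPM. Plxnb2 was thus the least abundant member per length in each genotype, and Bcl6 was in the middle of the order.

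**Figure D1:**
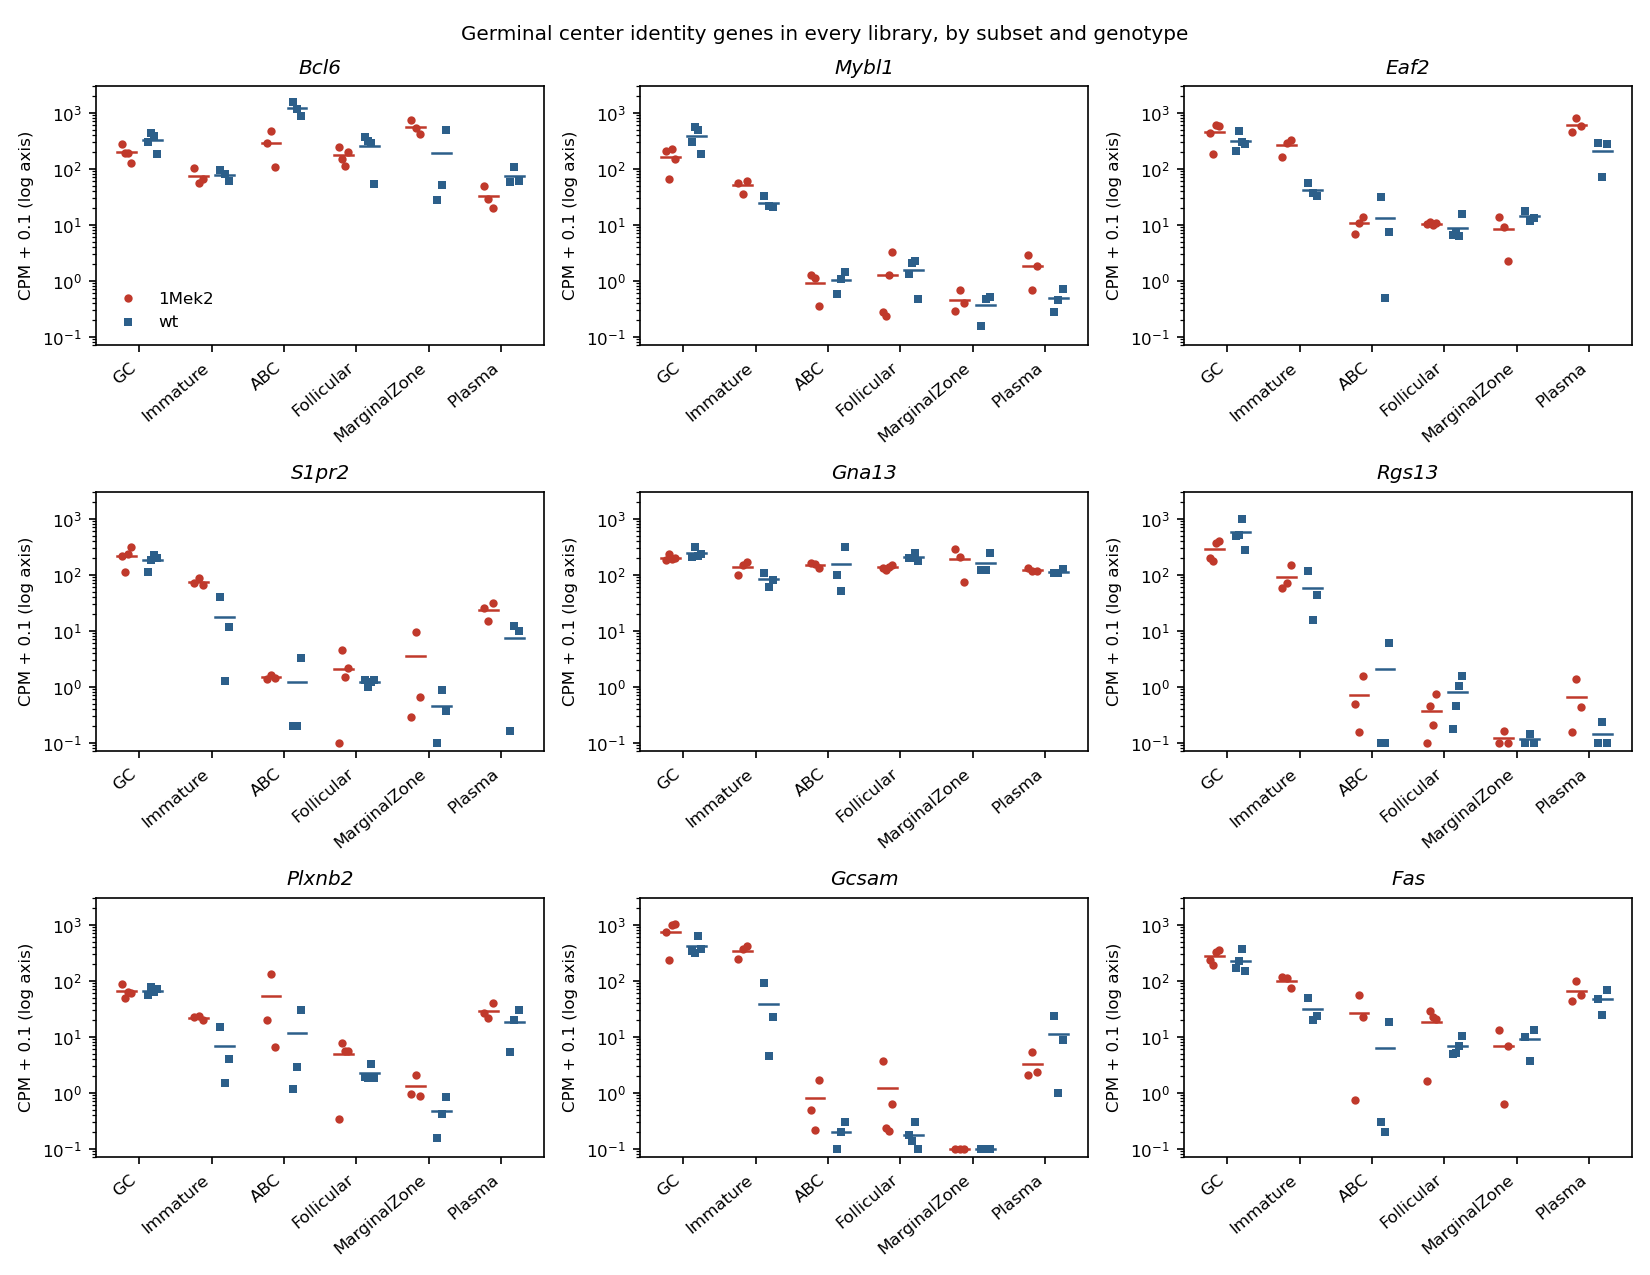
Level of each germinal center identity gene in every library. The vertical log axis gives CPM + 0.1, each point is 1 library, the short line is the group mean, circles are libraries labelled 1Mek2 and squares are wt libraries. S1pr2, Mybl1, Rgs13 and Gcsam are high in GC, lower in mean in Immature and no higher than 30.6 CPM elsewhere, and Bcl6 and Gna13 are spread over the subsets. Eaf2 in Plasma overlaps Eaf2 in GC in these gene-span counts, while in TPM the wt groups do not overlap.

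Among the transcription members, Bcl6 did not follow the GC gate. It had 281, 188, 128 and 190.0 CPM in GC libraries labelled 1Mek2 and 296, 437, 380.0 and 182 CPM in wt GC libraries. Its highest values were in wt ABC libraries, with 1544, 1162 and 882 CPM, all above every GC library. MarginalZone libraries labelled 1Mek2 came next, with 752, 524 and 410.3 CPM, and wt MarginalZone libraries did not keep together, with 51.6, 27.9 and 498 CPM. Follicular libraries had 112 to 239 CPM under the label 1Mek2 and 54.3 to 363 CPM in wt, overlapping GC in each genotype. Immature libraries had 103, 55.3 and 66.3 CPM under the label 1Mek2 and 94.4, 81.2 and 60.1 CPM in wt, all below every GC library in CPM. In TPM, Immature and GC libraries labelled 1Mek2 overlapped, at 16.9 to 54.9 and 36.2 to 120. Those of wt did not, at 32.4 to 55.8 and 78.2 to 219 TPM. Plasma libraries had the lowest mean of each genotype, with 49.8, 28.8 and 20.0 CPM under the label 1Mek2 and 56.7, 108 and 60.5 CPM in wt; those of wt overlapped Immature, Follicular and MarginalZone.

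Bcl6 was called higher in wt GC than in wt Immature (log2 fold change 2.25 ± 0.53, adjusted p = 0.00212, edgeR) and than in wt Plasma (2.04 ± 0.43, adjusted p = 0.0035, edgeR). Among libraries labelled 1Mek2 it was not called in GC over Immature (1.36 ± 0.35, adjusted p = 0.155, edgeR) and was called over Plasma (2.59 ± 0.44, adjusted p = 0.00181, edgeR). It was called lower in wt GC than in wt ABC (-1.94 ± 0.50, adjusted p = 0.0108, edgeR) and lower in GC than in MarginalZone among libraries labelled 1Mek2 (-1.54 ± 0.35, adjusted p = 0.00756, edgeR). Against Follicular it was not called in either genotype (0.20 ± 0.37 in 1Mek2 and 0.55 ± 0.47 in wt). Against wt MarginalZone it was not called (0.84 ± 0.68, adjusted p = 0.411, edgeR), and without wt MarginalZone replicate 3, the library at 498 CPM, it was (2.93, adjusted p = 0.0045, edgeR). The wt ABC libraries also held 3038 to 3504 CPM of 5 markers of plasmacytoid dendritic cells, against 45.4 to 92.2 CPM in wt GC libraries, and 2587 to 5625 CPM of B cell markers, against 2659 to 6544 CPM. Of the 4 dendritic cell markers tested, 4 were called lower in wt GC than in wt ABC, where 13.3% of all genes were. The part of these markers in the Bcl6 value was not tested. Markers of other cells were also high in Plasma libraries. Of the 9 T cell markers 9 were called lower in GC than in Plasma in each genotype, with sums of 154 to 198 CPM in GC against 2091 to 2362 CPM in Plasma under the label 1Mek2 and of 122 to 258 CPM against 2626 to 4466 CPM in wt. So were 7 of 7 neutrophil markers and 5 of 5 tested erythroid markers in each genotype, and 5 of 7 macrophage and monocyte markers in 1Mek2 and 6 of 7 in wt. Of all genes, 16.2% were called lower in GC than in Plasma in 1Mek2 and 8.36% in wt. The part of these markers in the value of any member against Plasma was not tested.

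In gene-span counts Mybl1 was higher in every GC library than in every library of another subset. It had 207, 223, 146 and 65.1 CPM in GC libraries labelled 1Mek2 and 298, 554, 490.2 and 181 CPM in wt GC libraries. Immature libraries held 55.4, 34.9 and 61.1 CPM under the label 1Mek2 and 32.5, 21.3 and 20.3 CPM in wt. Under the label 1Mek2 GC was not called over Immature (1.65 ± 0.41, adjusted p = 0.137, edgeR). In TPM the GC and Immature libraries of that label overlapped, at 19.6 to 60.6 and 8.01 to 20.9. No library of ABC, Follicular, MarginalZone or Plasma passed 3.17 CPM. The log2 fold change of wt GC was 4.17 ± 0.59 over Immature, 8.63 ± 0.95 over ABC, 8.25 ± 0.61 over Follicular, 10.57 ± 0.82 over MarginalZone and 9.82 ± 0.68 over Plasma, each called by edgeR. Mybl1 stood out among the 9 members in that its call against wt Immature held without any single library.

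In gene-span counts Eaf2 was shared by GC and Plasma libraries. It had 429, 612, 579.8 and 184 CPM in GC libraries labelled 1Mek2 and 204, 472, 303 and 282 CPM in wt GC libraries. Plasma libraries held 452, 794 and 586 CPM under the label 1Mek2 and 286, 72.5 and 275 CPM in wt, overlapping the GC range of their genotype. The difference was not called in either genotype (-0.44 ± 0.42, adjusted p = 0.446, in 1Mek2 and 0.53 ± 0.46, adjusted p = 0.492, in wt; edgeR), and on exon reads and TPM the 1Mek2 value had the opposite sign (0.041 and 1.19). On exon reads Eaf2 was called higher in wt GC than in wt Plasma (1.43, adjusted p = 0.0482, edgeR). In TPM, which came from exons, wt GC libraries had 169 to 248 and wt Plasma libraries 25.4 to 61.2, without overlap. Under the label 1Mek2 the 2 subsets overlapped, at 87.6 to 431 and 76.7 to 146 TPM. ABC, Follicular and MarginalZone libraries had 0.391 to 31.0 CPM of Eaf2, against which GC was called higher in each genotype with log2 fold changes of 5.44 to 5.74 in 1Mek2 and 4.55 to 5.39 in wt.

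Of the members that act in positioning, S1pr2 was highest in GC. It had 214, 235, 315 and 113 CPM in GC libraries labelled 1Mek2 and 113, 181, 225 and 198 CPM in wt GC libraries. Immature libraries held 70.8, 89.0 and 64.5 CPM under the label 1Mek2, all above the wt Immature libraries, which had 40.5, 1.14 and 11.5 CPM. Plasma libraries held 25.6, 14.5 and 30.6 CPM under the label 1Mek2 and 0.0595, 11.9 and 9.92 CPM in wt, and no library of the remaining subsets passed 9.58 CPM. S1pr2 was called higher in wt GC than in each of the other 5 wt subsets, with log2 fold changes of 3.55 ± 0.57 over Immature, 7.37 ± 1.32 over ABC, 7.58 ± 0.39 over Follicular, 9.15 ± 0.96 over MarginalZone and 4.55 ± 1.00 over Plasma. The call against wt Plasma was lost without wt Plasma replicate 3 (4.87, adjusted p = 0.129, edgeR).

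Gna13, the G protein subunit downstream of S1PR2, was the most even member. It had 181, 189, 199.7 and 233 CPM in GC libraries labelled 1Mek2 and 207, 311, 212 and 236 CPM in wt GC libraries. Over all other libraries it ran from 51.4 to 312 CPM, and each neighbouring pair of subsets in its order of means overlapped in each genotype. Gna13 was called higher in GC in 1 of 10 comparisons with another subset, that with wt Immature (1.71 ± 0.52, adjusted p = 0.0385, edgeR), where wt Immature libraries had 108, 60.0 and 81.9 CPM. Scaling by relative log expression in place of TMM ended that call (1.54, adjusted p = 0.162, edgeR), as did leaving out any 1 library of the comparison but GC wt replicate 4. On exon reads Gna13 was also called higher in GC than in Follicular (0.99 in 1Mek2 and 1.01 in wt) and than in Plasma (1.04 in 1Mek2 and 1.36 in wt).

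Rgs13 was nearly limited to GC and Immature libraries. It had 202, 367, 394 and 174 CPM in GC libraries labelled 1Mek2 and 497, 506, 1006 and 271 CPM in wt GC libraries. Immature libraries held 57.6, 70.1 and 147 CPM under the label 1Mek2 and 118, 15.2 and 43.6 CPM in wt, so that the genotypes overlapped in each of the 2 subsets. No library of the other subsets passed 6.03 CPM, a value reached by wt ABC replicate 3 while the other wt ABC libraries had 0 counts. In MarginalZone a single count was found over 3 libraries of each genotype. The ratio of GC to MarginalZone was 12376 in 1Mek2 (exact 95% counting interval 2221 to 4.8884e+05) and 37971 in wt (6814.7 to 1.4998e+06), and that of wt GC to wt Plasma, which had 3 counts, was 10773 (3686 to 52239). Such intervals cover counting error only. The called log2 fold changes of wt GC were 3.54 ± 0.58 over Immature, 8.20 ± 1.63 over ABC and 9.83 ± 0.79 over Follicular.

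Plxnb2 was highest in mean in GC but was not called over ABC. It had 86.4, 61.8, 60.2 and 48.8 CPM in GC libraries labelled 1Mek2 and 55.1, 76.7, 62.8 and 69.7 CPM in wt GC libraries. ABC libraries ranged widely, with 20.1, 131 and 6.50 CPM under the label 1Mek2 and 1.08, 2.74 and 30.5 CPM in wt. The wt ABC libraries were all below every wt GC library. Under the label 1Mek2, the ABC library at 131 CPM was above every GC library. GC was not called higher than ABC in either genotype (0.31 ± 0.83 in 1Mek2 and 2.61 ± 1.18, adjusted p = 0.101, in wt; edgeR), and in wt it was called without ABC wt replicate 3 (5.17, adjusted p = 0.00533, edgeR). Plasma libraries had 26.1, 21.1 and 39.5 CPM under the label 1Mek2 and 5.24, 19.6 and 30.2 CPM in wt, below every GC library, and the difference was called in each genotype (1.16 ± 0.37, adjusted p = 0.0312, in 1Mek2 and 1.80 ± 0.53, adjusted p = 0.0267, in wt; edgeR). Leaving out any 1 of 5 of the 7 libraries ended each of these calls. Immature, Follicular and MarginalZone libraries stayed at or below 23.2 CPM.

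Gcsam was not detected in MarginalZone. It had 749.8, 978, 1012 and 230.0 CPM in GC libraries labelled 1Mek2 and 344, 314, 619 and 372 CPM in wt GC libraries, and 0 counts in every MarginalZone library. Against 3 counts over the group, the level in GC was at least 10931-fold higher than in MarginalZone in 1Mek2 and at least 9283-fold higher in wt. Immature libraries held 247, 375 and 417 CPM under the label 1Mek2, overlapping the GC libraries of the same label, and 89.2, 4.40 and 22.4 CPM in wt, all below GC. Plasma libraries reached 5.18 CPM under the label 1Mek2 and 23.8 CPM in wt, and ABC and Follicular libraries reached 3.64 CPM. The log2 fold changes of wt GC were 3.65 ± 0.57 over Immature, 11.86 ± 1.11 over ABC, 12.55 ± 0.71 over Follicular and 5.20 ± 0.84 over Plasma, each called by edgeR.

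Fas transcript followed the gate that used its protein, which makes it a check of the sort and not a finding. It had 236, 328, 358 and 192 CPM in GC libraries labelled 1Mek2 and 169.6, 221, 375 and 148 CPM in wt GC libraries. The FAS- gates of Follicular and MarginalZone cells left 0.518 to 28.2 CPM under the label 1Mek2 and 3.53 to 13.2 CPM in wt. Immature and Plasma cells were not gated on FAS. Immature libraries had 115, 111 and 75.5 CPM under the label 1Mek2 and 48.7, 19.6 and 23.7 CPM in wt, and Plasma libraries 42.6 to 98.1 CPM under the label 1Mek2 and 24.8 to 67.0 CPM in wt.

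**Figure D2:**
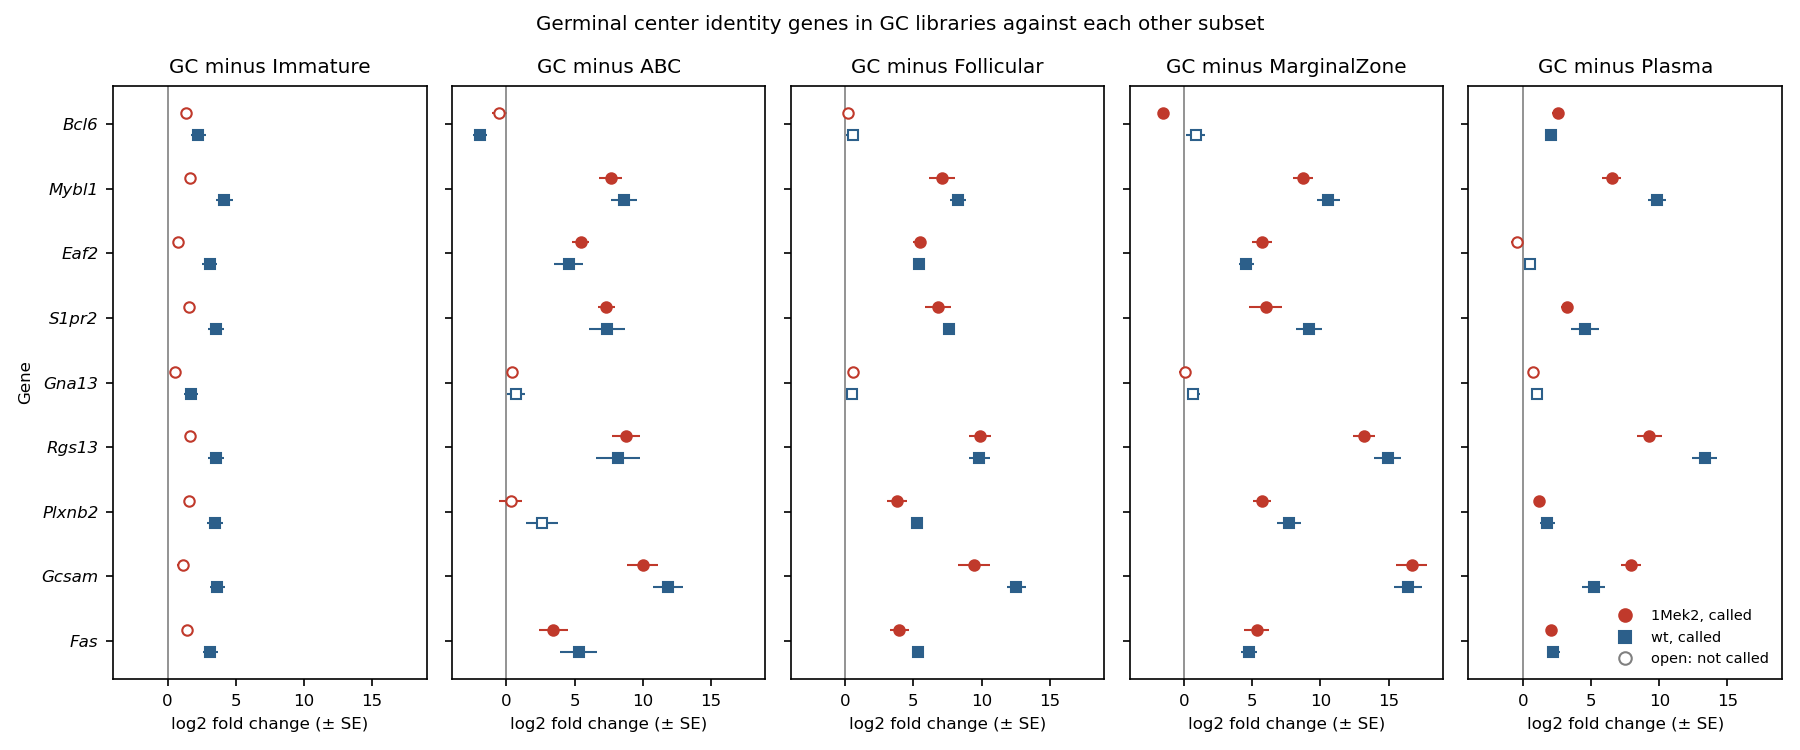
Log2 fold change of each germinal center identity gene in GC libraries over each other subset, with its SE. Circles compare libraries labelled 1Mek2 and squares wt libraries, filled symbols were called (adjusted p under 0.05, edgeR) and open symbols were not; the values of Gcsam and Rgs13 over MarginalZone, and of Rgs13 over wt Plasma, rest on 0 to 3 counts and depend on the prior count of the fit. Of the 9 members 9 were called over wt Immature, where 1.94% of all genes were called higher. None was called over Immature under the label 1Mek2, where 0.0111% of all genes were. With the animal as a block 8 were called there, and the interaction of genotype and subset called no member.

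Counted over the comparisons, the members were called higher in wt GC in 9 of 9 cases against Immature, 6 against ABC, 7 against Follicular, 7 against MarginalZone and 7 against Plasma, Fas included each time. Over all genes tested, 1.94% were called higher against Immature, 10.8% against ABC, 14.6% against Follicular, 15.2% against MarginalZone and 10.8% against Plasma. The 1 member called lower in wt GC was Bcl6 against ABC, where 13.3% of all genes were called lower. The median log2 fold change of the members was 3.48 over Immature, against 0.04 for all genes tested, 5.30 over ABC (all genes 0.41), 5.39 over Follicular (0.04), 7.68 over MarginalZone (0.09) and 2.23 over Plasma (0.05). All 9 members passed the filter on low counts in these comparisons. The ratio of exon reads to counts was 69.4% to 89.6% in wt GC libraries and did not overlap that of wt ABC libraries, 40.1% to 50.3%; with this ratio as a covariate, chosen after seeing the data, 0 members were called against ABC and 4 higher against Plasma (Gcsam, Mybl1, Fas and Rgs13). That fit called 0.0% of all genes higher against ABC and 2.32% against Plasma. Its log2 fold changes over ABC were 10.16 for Gcsam (11.86 without the covariate), 8.497 for Mybl1 (8.63), 5.89 for Eaf2 (4.55), 4.49 for S1pr2 (7.37) and 1.99 for Fas (5.30), and Gna13 changed sign (-0.069 in place of 0.69).

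The comparison with wt Immature depended on 1 library. Without Immature wt replicate 2, the lowest wt Immature library for S1pr2, Gcsam, Plxnb2, Rgs13, Gna13 and Fas, the call held for Mybl1 alone (3.90, adjusted p = 0.00342, edgeR), and the other 8 members kept their direction with adjusted p from 0.0631 to 1.0; 0.106% of all genes were called higher without it. Bcl6 also lost its call without Immature wt replicate 3 (2.10, adjusted p = 0.207, edgeR) or GC wt replicate 2 (1.62, adjusted p = 0.0553, edgeR). A single edgeR fit over all 12 groups called 1 of the 9, Mybl1 (3.95), and 0.0397% of all genes higher, 10 of 25181; its log2 fold changes for the others ran from 1.53 (Gna13) to 3.41 (Gcsam). With the animal as a block, since the 3 Immature libraries share their animals with GC libraries, 9 of 9 were called, with log2 fold changes of 1.81 (Gna13) to 4.64 (Gcsam), where 2.24% of all genes were called higher.

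Among libraries labelled 1Mek2, 7 of 9 members were called higher in GC than in Follicular, MarginalZone and Plasma, and 6 of 9 than in ABC. Over all genes, 16.3% were called higher against Follicular, 22.4% against MarginalZone, 16.2% against Plasma and 11.4% against ABC. The member called lower in GC was Bcl6 against MarginalZone, where 19.8% of all genes were. The median log2 fold change of the members was 5.44 over Follicular, 5.74 over MarginalZone, 2.59 over Plasma and 5.44 over ABC, against -0.09, -0.01, 0.06 and -0.04 for all genes. Against ABC, only S1pr2 (7.36, adjusted p = 0.0259) and Rgs13 (8.24, adjusted p = 0.0488) were still called by edgeR without ABC 1Mek2 replicate 2. The Fas call against ABC (3.42 ± 1.06, adjusted p = 0.0443, edgeR) was lost without any 1 of the 7 libraries. With the ratio of exon reads to counts as a covariate, 2 members were called higher against MarginalZone, Gcsam and Rgs13, where 0.143% of all genes were. That ratio did not overlap between GC and MarginalZone libraries labelled 1Mek2. The fit over 12 groups called 4 higher against Plasma, Bcl6, Gcsam, Mybl1 and Rgs13, where 7.65% of all genes were.

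Against Immature libraries of the same label, none of the 9 members was called in GC, where 0.0111% of all genes, 2 of 17974, were. At an unadjusted p under 0.05, 2107 genes differed, and DESeq2 called 6 of the 9 members. Each of the 9 members was higher in mean in GC, with log2 fold changes of 0.52 ± 0.26 (Gna13) to 1.65 ± 0.41 (Mybl1), a median of 1.44 against -0.04 for all genes, and adjusted p from 0.0812 to 0.447 in edgeR. With the animal as a block in the fit, 8 of 9 were called, with log2 fold changes of 1.08 (Eaf2) to 1.92 (Mybl1) and adjusted p from 0.00468 to 0.0155; Gna13 was not (0.46, adjusted p = 0.217), and 1.85% of all genes were called higher. Without GC 1Mek2 replicate 4, from an animal with no Immature library, 8 of 9 were called as well, with Gna13 again outside (0.42, adjusted p = 0.323, edgeR) and 1.23% of all genes called higher. That library had the lowest values of its group for Gcsam, Mybl1, Eaf2, S1pr2, Rgs13, Fas and Plxnb2, and 578 CPM summed over 10 proliferation genes, against 2771, 4150 and 3843 CPM in the other GC libraries labelled 1Mek2.

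In the 6 animals with a library of each of the 2 subsets, each of the 9 members was higher in GC than in Immature in every animal. The Immature level as a percent of the GC level of the same animal ran from 26.1% (Plxnb2) to 54.9% (Gna13) in animal 323, from 15.7% (Mybl1) to 79.6% (Gna13) in animal 570 and from 20.5% (S1pr2) to 85.0% (Gna13) in animal 636, all labelled 1Mek2. In wt animals it ran from 10.9% (Mybl1) to 52.2% (Gna13) in animal 358, from 0.63% (S1pr2) to 19.3% (Gna13) in animal 413 and from 3.63% (Gcsam) to 38.7% (Gna13) in animal 487. Gna13 had the highest share in each of the 6. The member with the lowest share differed between animals. As ratios, the shares of the wt animals were further apart from each other than those of the animals labelled 1Mek2 for every member. In percentage points the reverse held for Bcl6, Mybl1 and Fas.

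**Figure D3:**
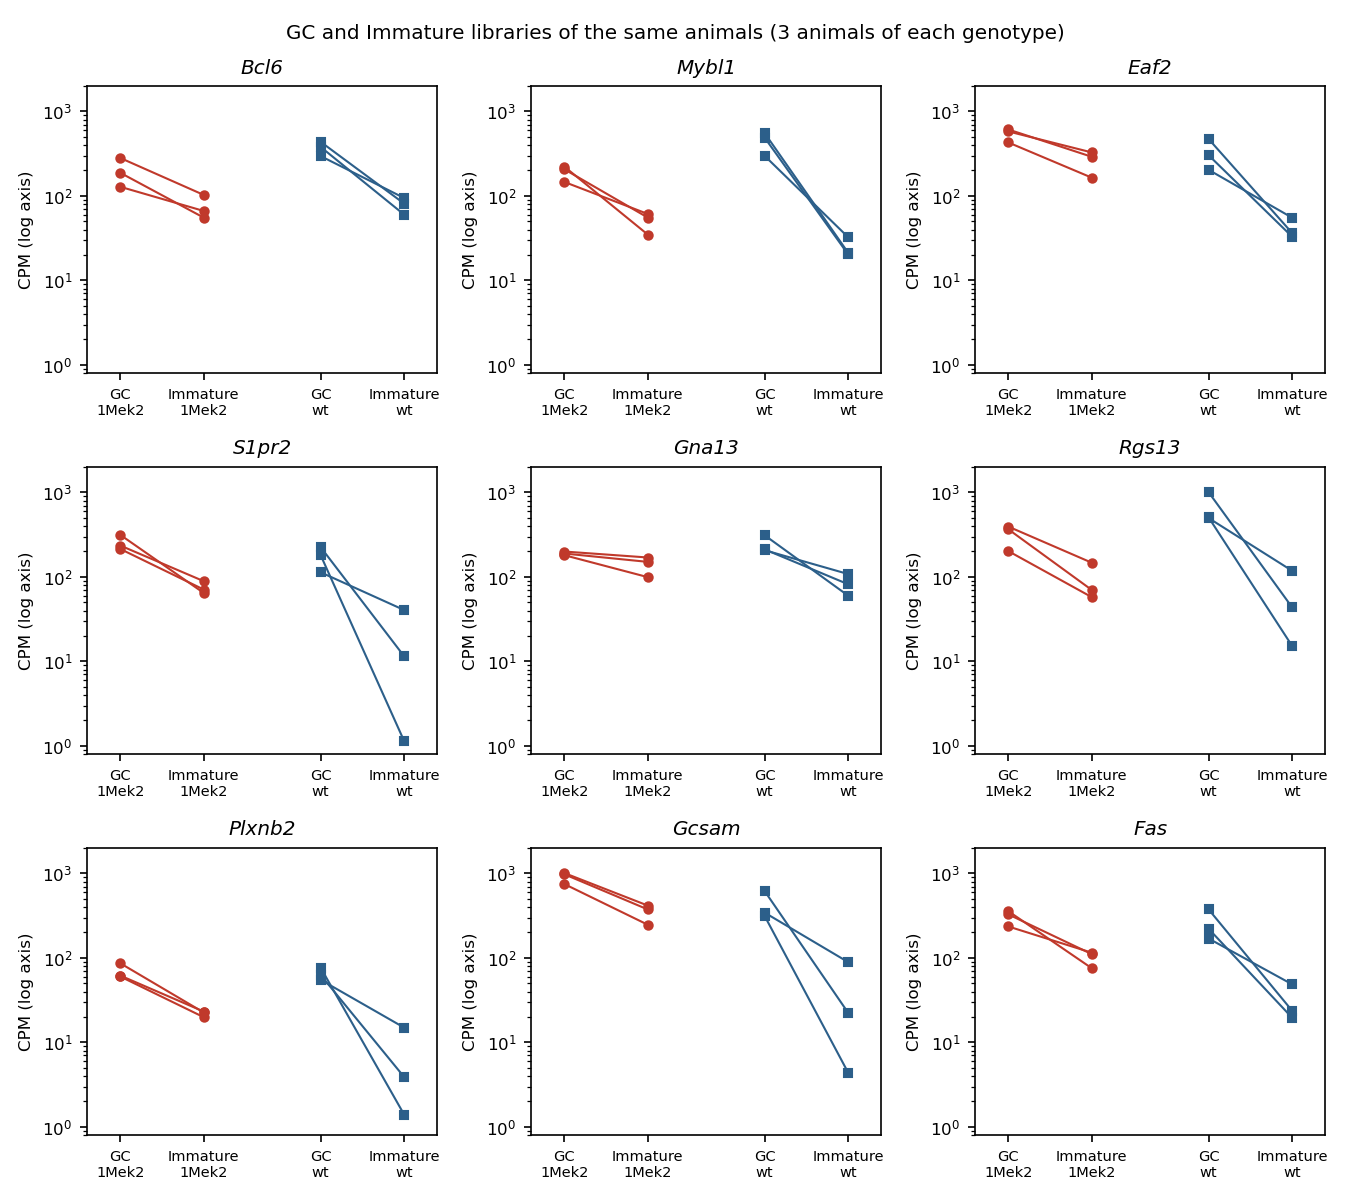
GC and Immature levels of each germinal center identity gene in the 6 animals that gave both libraries. The vertical log axis gives CPM, each line joins the 2 libraries of 1 animal, with animals labelled 1Mek2 on the left (circles) and wt animals on the right (squares). Every line is lower at Immature, by the most for S1pr2 in wt animal 413, where Immature held 0.63% of the GC level.

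The genotype comparison within Immature called 2 of 9 members higher in libraries labelled 1Mek2, where 0.81% of all genes were called higher. Eaf2 had 164, 290.5 and 327 CPM in libraries labelled 1Mek2 and 55.2, 36.4 and 32.9 CPM in wt, a log2 fold change of 2.698 ± 0.395 (adjusted p = 5.68e-06, edgeR). Fas, at the levels given above, had a log2 fold change of 1.75 ± 0.41 (adjusted p = 0.0112, edgeR). In CPM every library labelled 1Mek2 was above every wt library for S1pr2, Gcsam, Mybl1, Fas, Plxnb2 and Eaf2, 6 of 9 members, a separation found in this direction for 7.35% of all genes tested. In TPM Mybl1 overlapped, at 8.01 to 20.9 under the label 1Mek2 and 7.27 to 11.1 in wt. Plxnb2 did so narrowly, at 7.11 to 11.5 and 0.260 to 7.15 TPM. Gcsam (3.17 ± 1.23, adjusted p = 0.590), S1pr2 (2.09 ± 1.29, adjusted p = 0.713), Plxnb2 (1.71 ± 0.63, adjusted p = 0.277) and Mybl1 (1.06 ± 0.44, adjusted p = 0.392) were not called by edgeR. Bcl6 (-0.04 ± 0.39), Rgs13 (0.63 ± 0.67) and Gna13 (0.79 ± 0.38) overlapped between the genotypes. The median over the 9 members was 1.71, against -0.17 for all genes.

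These Immature values depended on single libraries. Without Immature wt replicate 1, which was the highest wt library for each of the 9 members, 6 members were called, Rgs13 (1.75, adjusted p = 0.0114), S1pr2 (3.63), Gcsam (4.78) and Plxnb2 (3.14, adjusted p = 0.00231) joining Fas and Eaf2, and 2.18% of all genes were called higher. The Fas call was lost without Immature 1Mek2 replicate 3 (1.65, adjusted p = 0.240), Immature wt replicate 2 (1.49, adjusted p = 0.119) or Immature wt replicate 3 (1.60, adjusted p = 0.210, edgeR). Gcsam was called without Immature 1Mek2 replicate 4 (2.96, adjusted p = 0.0275) and without any 1 of the wt libraries. Eaf2 held its call without any single library, and lost it in an edgeR fit over all 12 groups (2.65, adjusted p = 0.974), which called 0.0% of all genes higher. With the ratio of exon reads to counts as a covariate, an alternative chosen after seeing the data, no member and 0.0% of all genes were called higher; Eaf2 had a log2 fold change of 2.02 there and Fas 1.17.

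Other gene groups moved in the same libraries, where 0.81% of all genes were called higher. Of 10 proliferation genes 4 were called higher in Immature libraries labelled 1Mek2 (Cdk1, Tyms, Aurka and Mcm5), with summed levels of 1148, 2073 and 1673 CPM, against 853, 128 and 256 CPM in wt. Of 5 plasma cell markers 1 was called higher, with sums of 1716 to 6048 CPM against 247 to 943 CPM in wt. Of 10 other germinal center effector genes 2 were called higher: Neil1, a DNA repair glycosylase (2.35 ± 0.41, adjusted p = 0.000476), and Cd83, an activation marker (1.48 ± 0.36, adjusted p = 0.0169; edgeR). Of 9 T cell markers 1 was called higher and 8 had a positive difference, with sums of 99.2, 184 and 136 CPM in libraries labelled 1Mek2 against 98.6, 49.2 and 62.0 CPM in wt. Of 6 stromal and follicular dendritic cell markers tested 1 was called higher, with sums of 8.67, 131 and 128 CPM in libraries labelled 1Mek2 against 9.69, 8.91 and 4.03 CPM in wt. Erythroid marker sums were lower in every library labelled 1Mek2, at 17.2 to 49.6 CPM against 49.8 to 73.0 CPM in wt. Neutrophil marker sums were 302, 0.389 and 2.58 CPM under the label 1Mek2 and 0.958 to 3.30 CPM in wt. None of the 4 erythroid and 2 neutrophil markers tested was called. B cell marker sums overlapped between the genotypes, at 4408 to 6211 CPM under the label 1Mek2 and 4483 to 6333 CPM in wt. The part of these groups in the Eaf2 and Fas values was not tested.

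**Figure D4:**
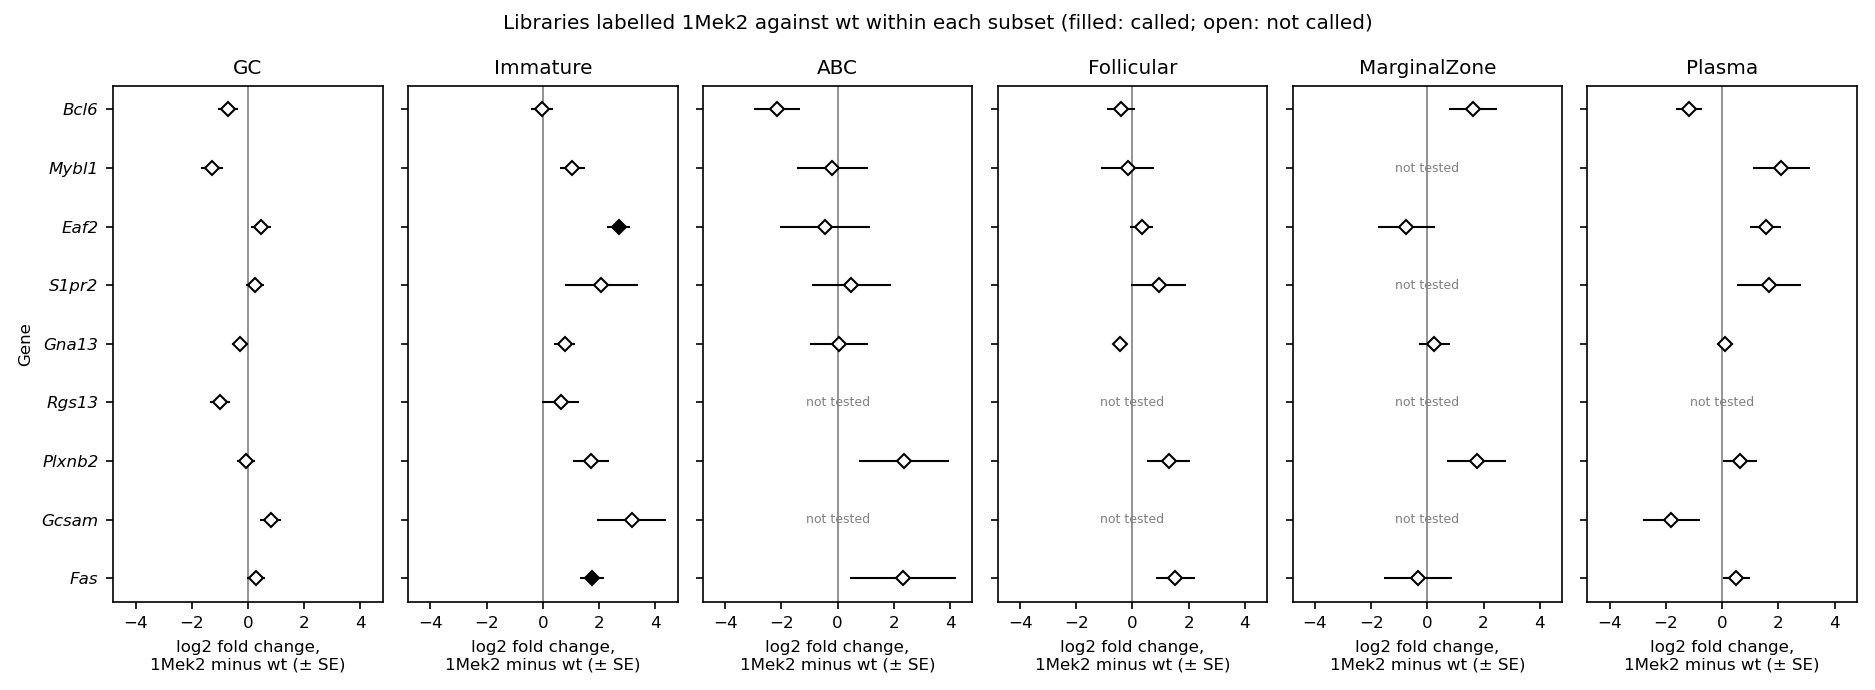
Log2 fold change of each germinal center identity gene in libraries labelled 1Mek2 over wt libraries within each subset, with its SE. Filled diamonds were called (adjusted p under 0.05, edgeR), open diamonds were not, and genes under the filter on low counts are marked as not tested. The 2 filled diamonds are Eaf2 and Fas in Immature.

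Within GC no member was called between the genotypes, where 0.018% of all genes, 3 of 16681, were called higher, 6 were called lower and 2017 had an unadjusted p under 0.05. DESeq2 called no member either. Mybl1 had the largest difference, -1.26 ± 0.39 (unadjusted p = 0.0049, adjusted p = 0.400, edgeR). In gene-span counts its groups overlapped through GC wt replicate 4 alone, at 181 CPM, the library labelled wt whose name reads Mek1ff. In TPM they did not overlap, at 19.6 to 60.6 under the label 1Mek2 and 73.8 to 168 in wt. Rgs13 was also separated in TPM, at 144 to 256 and 273 to 675, and the other members overlapped. The share of all genes separated in TPM was not measured, and no alternative fit called a member. No member was called with any single library left out. Rgs13 (-0.996 ± 0.361), Gcsam (0.82 ± 0.37) and Bcl6 (-0.71 ± 0.34) followed, with adjusted p of 0.409, 0.409 and 0.415 in edgeR. S1pr2 (0.26 ± 0.33), Fas (0.29 ± 0.32), Gna13 (-0.28 ± 0.30), Eaf2 (0.47 ± 0.36) and Plxnb2 (-0.06 ± 0.32) were within 1.4 SE of 0, and all of them but Eaf2 changed sign under an alternative. The median over the members was -0.06, against -0.09 for all genes.

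No member was called in ABC, Follicular, MarginalZone or Plasma. Of all genes, 0.0% were called higher in ABC, Follicular and MarginalZone and 0.0202% in Plasma, while 2517, 1570, 1132 and 2285 genes had an unadjusted p under 0.05. DESeq2 called no member there either. The filter on low counts left 7, 7, 5 and 8 of the 9 members for testing: Rgs13 was not tested in any of the 4, Gcsam not in ABC, Follicular and MarginalZone, and S1pr2 and Mybl1 not in MarginalZone. In ABC, Bcl6 had 284, 463 and 109 CPM in libraries labelled 1Mek2 and 1544, 1162 and 882 CPM in wt, without overlap (-2.16 ± 0.81, adjusted p = 0.174, edgeR), a separation downward found for 11.6% of all genes tested. A fit over all 12 groups called it lower (-2.07, adjusted p = 0.0223, edgeR), as it did 10.2% of all genes, and limma with the animal as a random block called it lower (-2.23, adjusted p = 0.00311), as it did 8.59%. With the ratio of exon reads to counts as a covariate the sign turned (1.78, not called). That ratio was 73.2% to 90.5% in ABC libraries labelled 1Mek2 and 40.1% to 50.3% in wt, without overlap. The fit can therefore not tell the ratio from the genotype. Plasmacytoid dendritic cell markers summed to 54.6 to 3233 CPM in ABC libraries labelled 1Mek2 and 3038 to 3504 CPM in wt, and B cell markers to 7334 to 8694 CPM and 2587 to 5625 CPM; their part in the Bcl6 difference was not tested.

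In Plasma, S1pr2 and Eaf2 were higher in every library labelled 1Mek2 than in every wt library and Bcl6 was lower, a separation found for 13.1% of all genes tested upward and 10.4% downward. Their log2 fold changes were 1.67 ± 1.13 for S1pr2 (adjusted p = 0.529), 1.54 ± 0.53 for Eaf2 (adjusted p = 0.226) and -1.19 ± 0.46 for Bcl6 (adjusted p = 0.272, edgeR). Plxnb2 was separated upward in MarginalZone, at 0.847, 2.01 and 0.786 CPM in libraries labelled 1Mek2 against 0.317, 0.0559 and 0.742 CPM in wt (1.77 ± 1.05, adjusted p = 0.647, edgeR), as were 6.85% of all genes. Gna13 was separated downward in Follicular, at 134, 122, 139 and 149 CPM against 198, 196, 241 and 178 CPM in wt (-0.45 ± 0.24, adjusted p = 0.488, edgeR), as were 5.44% of all genes.

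Averaged over the 6 subsets with the animal as a random block (limma with voom), Gcsam was called higher in libraries labelled 1Mek2 (1.59 ± 0.49, adjusted p = 0.0413), where 4.63% of all genes were called higher. S1pr2 (1.84 ± 0.61, adjusted p = 0.0649), Plxnb2 (1.30 ± 0.45, adjusted p = 0.0814) and Eaf2 (0.84 ± 0.35, adjusted p = 0.160) were not called. The Gcsam average takes in MarginalZone libraries without a single count, and its call was lost when any of 11 of the 16 animals was left out, with adjusted p from 0.0567 to 0.172. S1pr2 was called without animal 634 (adjusted p = 0.0472) or animal 670 (adjusted p = 0.0280), as were Fas and Plxnb2, and Plxnb2 also without animal 666 (adjusted p = 0.0271). The interaction of genotype and subset called none of the 9 members, against 2.0% of all genes (503 of 25181) and 4363 genes at an unadjusted p under 0.05. The lowest adjusted p were 0.139 for Gcsam, 0.154 for Bcl6 and 0.167 for Eaf2. The difference in the GC to Immature contrast between the genotypes was tested within this interaction alone.

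Genes that work with the members were counted from lists. Of all genes, 1.94%, 10.8%, 14.6%, 15.2% and 10.8% were called higher in wt GC than in wt Immature, ABC, Follicular, MarginalZone and Plasma. Of 10 other germinal center effector genes, 6, 8, 5, 6 and 9 were called higher in wt GC than in wt Immature, ABC, Follicular (where 9 were tested), MarginalZone and Plasma, and none lower. Nuggc, a nuclear GTPase of germinal center B cells, was called in each of the 5, from 3.69 ± 0.57 over Immature to 11.86 ± 0.89 over MarginalZone. Among libraries labelled 1Mek2, 0, 6, 7, 8 and 10 of 10 effector genes were called higher in GC, in the same order of subsets. The shares of all genes called higher there were 0.0111%, 11.4%, 16.3%, 22.4% and 16.2%. Of 10 proliferation genes, 8 were called higher in wt GC than in wt Immature and 10 of 10 than in each of the other 4 wt subsets.

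Several genes of confinement and exit were lower in GC. Of 10 tested, 3, 3, 4, 3 and 4 were called lower in wt GC than in wt Immature, ABC, Follicular, MarginalZone and Plasma, and 1 was called higher, the chemokine receptor gene Cxcr5 over Plasma (2.55 ± 0.49). Of all genes, 0.67%, 13.3%, 10.5%, 8.84% and 8.36% were called lower in wt GC, in the same order of subsets. S1pr1, the receptor that draws lymphocytes toward the circulation, was called lower in each of the 5, from -2.23 ± 0.50 against Immature to -5.97 ± 0.66 against ABC. Ccr7, which guides B cells toward the T cell zone, was called lower against Immature (-3.38 ± 0.52), Follicular (-4.01 ± 0.71), MarginalZone (-2.45 ± 0.72) and Plasma (-5.00 ± 0.54). Arhgef1, which carries the signal of the GNA13 subunit to RhoA, was called lower in wt GC against ABC (-2.18 ± 0.57), Follicular (-2.48 ± 0.54) and MarginalZone (-2.31 ± 0.54). Among libraries labelled 1Mek2, 0, 3, 5, 4 and 2 of these 10 genes were called lower in GC, against 0.261%, 9.73%, 14.6%, 19.8% and 16.2% of all genes.

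Of 12 genes known as targets of BCL6 repression, 1, 2, 3, 3 and 6 were called lower in wt GC than in wt Immature, ABC, Follicular, MarginalZone and Plasma, and 1, 1, 2, 0 and 0 higher, where 0.67%, 13.3%, 10.5%, 8.84% and 8.36% of all genes were called lower. Bcl2, the survival gene, was called lower in each of the 5, from -1.85 ± 0.50 against Immature to -4.83 ± 0.72 against ABC. Prdm1, which drives plasma cell differentiation, was called lower against Plasma (-2.04 ± 0.55) and higher against Follicular (3.61 ± 0.70); its value against Plasma is given after it was seen, for its role. Among 13 other germinal center transcription factors and cofactors tested, 2, 2, 2, 3 and 9 were called higher in wt GC in the same order of subsets and 0, 6, 2, 2 and 0 lower. The shares of all genes called higher were 1.94%, 10.8%, 14.6%, 15.2% and 10.8%. Basp1, a repressor cofactor, was called higher in each of the 5, from 3.43 ± 1.02 over ABC to 7.45 ± 0.76 over MarginalZone, and Ezh2, a histone methyltransferase, over Immature (2.36 ± 0.54) and Follicular (2.89 ± 0.30).

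Relatives of single members did not all follow them. Of all genes, 1.94%, 10.8%, 14.6%, 15.2% and 10.8% were called higher in wt GC than in wt Immature, ABC, Follicular, MarginalZone and Plasma. The shares called lower were 0.67%, 13.3%, 10.5%, 8.84% and 8.36%, and the counts below keep this order of subsets. Mybl2, the B-MYB relative of Mybl1, was called higher in wt GC than in each of the other 5 wt subsets, from 2.79 ± 0.73 over Immature to 4.64 ± 1.42 over ABC. Myb itself was called lower against ABC (-3.62 ± 0.86) and higher over Follicular (3.79 ± 0.75). Of 4 relatives and partners of Eaf2, 1, 1, 1, 0 and 1 were called higher in wt GC than in wt Immature, ABC, Follicular, MarginalZone and Plasma and 0, 1, 1, 0 and 0 lower, with Ell2 over Immature (2.20 ± 0.53) and Follicular (2.21 ± 0.32) and Ell3 over ABC (6.19 ± 1.14) and Plasma (5.86 ± 0.63). Of the other RGS genes 6, 6, 6, 6 and 7 were tested, of which 1, 0, 2, 2 and 0 were called higher and 1, 1, 1, 0 and 2 lower. Rgs18 was lower against Immature (-3.44 ± 0.70), ABC (-6.32 ± 1.10) and Plasma (-3.67 ± 0.89). In the FAS death pathway 6, 6, 6, 6 and 7 genes were tested, of which 0, 1, 2, 0 and 1 were called higher and 0, 0, 1, 1 and 2 lower. Fasl, the ligand of FAS, was called lower in wt GC than in wt Plasma (-8.80 ± 0.82), whose libraries held the T cell markers given above. Among class 4 semaphorins and plexin B relatives of Plxnb2, 6, 4, 4, 4 and 6 were tested. Of these, 0, 1, 0, 0 and 1 were called higher and 0, 2, 1, 1 and 1 lower.

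As a description over the 40 libraries, which share subsets, animals and depth, members were compared on log2(TPM + 1). Pearson's r was 0.977 between Mybl1 and Rgs13, 0.950 between Gcsam and Rgs13 and 0.944 between S1pr2 and Gcsam. Bcl6 correlated with the other members between -0.444 (Eaf2) and 0.441 (Gna13), and Gna13 with no member above 0.686 (Rgs13). Among 19091 genes with a mean of at least 1 TPM in a group, those most like each member were Inpp5d, Ktn1 and Kmt2a for Bcl6 (r = 0.897, 0.876 and 0.867), Rgs13, Rassf6 and Nrep for Mybl1 (0.977, 0.968 and 0.962) and Rrm2, Slc43a3 and Ube2c for Eaf2 (0.967, 0.967 and 0.961). For S1pr2 they were Aunip, Esco2 and Ckap2l (0.972, 0.970 and 0.967), for Gna13 Zzz3, Rfc1 and Nap1l1 (0.855, 0.848 and 0.838), for Rgs13 Mybl1 and Rassf6 (0.977 and 0.967) and for Plxnb2 Gm32200, Mef2b and Parm1 (0.871, 0.859 and 0.858). For Gcsam they were Sh3bgrl2, Ttk and Kif11 (0.979, 0.976 and 0.975) and for Fas Aurkb, Ccnb2 and Rrm2 (0.945, 0.941 and 0.940).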

How the data were processed

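The authors deposited a table of gene counts and a table of TPM values (transcript abundance per exon length). Per the submitters' processing notes, the tools were Trim Galore 0.6.5, STAR 2.7.11a and featureCounts 2.0.3 on GRCm39; the settings that assign reads to overlapping genes and strands are not given in the sources used here. Libraries were made from polyA RNA with an Illumina TruSeq kit, per the labels. The deposited counts covered gene spans, and the deposited TPM gave whole exon reads for 100.0% of values, within 0.02 of a read, once scaled by exonic length. A total of 6 TPM entries without a name, up to 5.27% of a library's TPM, were left out.

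Counts were tested with edgeR 4.0.16 (quasi-likelihood, TMM, filterByExpr, robust) in R 4.3.3, each comparison on its own groups, with Benjamini-Hochberg adjustment over all genes tested at 0.05. The genotype effect averaged over subsets was fitted with limma 3.58.1 voom with the animal as a random block (correlation 0.0729), and the interaction with edgeR over 12 groups. The test scripts were tested on simulated data. Alternatives included DESeq2 1.42.0, other scaling, no filter, exon reads, log2(TPM) scales, blocks and leaving out each library or animal. In wt, the numbers of the GC and Immature libraries stand for the same animals, whose deviations from the group means correlated between -0.40 and 0.22 for the 3 pairs. Named genes are the 9 members, up to 4 called genes per list and comparison with the largest fold changes, and the 3 genes most correlated with each member; 1 gene that this rule names is not reported here. The members and lists were chosen with earlier results of these data known.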

Additional observations from a re-analysis of the deposited data

Results flagged for a closer look

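In 36 groups of 4 libraries, a value was singled out when its gap to the nearest other library was above Dixon's 95% critical value as a share of its group's range; chance alone singles out about 1 in 20 such groups. Gcsam in Follicular 1Mek2 replicate 1 stood apart from its group, at 3.64 CPM while the other libraries had 0.106 to 0.535 CPM (0.879 of the range). Plxnb2 in Follicular wt replicate 3 stood apart at 3.15 CPM, while the others had 1.74 to 1.81 CPM (0.945 of the range). Eaf2 in Follicular wt replicate 4 stood apart at 15.2 CPM, while the others had 6.30 to 7.20 CPM (0.899 of the range). All 3 values are in Follicular libraries and below those of every GC library of the same gene.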

How the results depend on the processing

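Of 2749 alternative values of the members, 992 that left out a library or animal and 1455 others kept their direction and their side of the threshold, 50 and 63 lost a call, and 26 and 66 gained one. The remaining 97 values, of 29 results, had the opposite sign; 0 of them were called in either fit. The number of the 9 members called in wt GC against wt Immature was 9, fell to 1 in an edgeR fit over 12 groups (which called 10 of all genes higher in place of 443), and ran from 1 to 9 with single libraries left out. With the ratio of exon reads to counts as a covariate, chosen after seeing the data, 0 were called in wt GC against ABC (main 7, 7 to 8 with libraries left out), 4 against wt Plasma (main 7, 6 to 8) and 2 in 1Mek2 GC against MarginalZone (main 8). That fit also called fewer of all genes higher: 0 in place of 1823 against ABC, 412 in place of 1916 against Plasma and 22 in place of 3437 against MarginalZone. In 1Mek2 GC against Immature, 0 were called, and 6 without a filter, 6 by DESeq2, 8 with the animal as a block, 3 with the exon covariate and 0 to 8 with libraries left out. In 1Mek2 GC, 6 were called against ABC (2 to 5 with libraries left out) and 7 against Plasma, where the fit over 12 groups called 4. For the genotype within Immature, 2 were called, and 4 without a filter, 1 on exon reads, 1 on each of 3 log2(TPM) scales, 0 in the fit over 12 groups, 1 with voom and a random animal block, 0 with the exon covariate and 1 to 6 with libraries left out. Within ABC, 0 were called, and 1 in the fit over 12 groups and 1 with voom and a random animal block. The average called 1, and 0 on exon reads and 0 to 4 without single animals; the interaction called 0, and 2 on exon reads. The cause was not tested.

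The values with the opposite sign were the following, each after the value as reported. Gna13 in wt GC against ABC (0.69) gave -0.082 on exon reads and -0.069 with the exon covariate, and Eaf2 in wt GC against Plasma (0.53) gave -0.18 with the animal as a block. In 1Mek2 GC against ABC, Bcl6 (-0.52) gave 0.52 with the covariate, and Plxnb2 (0.31) gave -0.0095 on exon reads and -0.25 to 2.24 with single libraries left out. Bcl6 against Follicular (0.20) gave -0.031 to 0.39 with libraries left out. Gna13 against MarginalZone (0.057) gave -0.031 with relative log expression, -0.0535 by DESeq2 and -0.38 to 0.43 with libraries left out. Eaf2 against Plasma (-0.44) gave 0.041 on exon reads, 1.19, 1.198 and 1.19 on 3 log2(TPM) scales and 0.50 with the covariate. Between genotypes in Immature, Bcl6 (-0.036) gave 0.027 with relative log expression, 0.12 by DESeq2, 0.22 with the replicate block, 0.066 with the covariate and -0.29 to 0.22 with libraries left out; Rgs13 (0.63) gave -0.85 with the covariate. Between genotypes in GC, S1pr2 (0.26) gave -0.059 on exon reads, -0.18 on 3 log2(TPM) scales, -0.24 with the covariate and -0.051 to 0.47 with libraries left out. Fas there (0.29) gave -0.074 on 3 log2(TPM) scales and -0.077 with the covariate. Plxnb2 (-0.065) gave 0.036 without the filter, 0.027 by DESeq2, 0.044 with the covariate and -0.42 to 0.040 with libraries left out, and Gna13 (-0.28) gave 0.044 with the covariate. Between genotypes in ABC the covariate gave 1.78 for Bcl6 (-2.16), -3.59 for S1pr2 (0.49), 1.88 for Mybl1 (-0.18), -0.90 for Fas (2.34), -1.43 for Gna13 (0.050) and 0.18 for Eaf2 (-0.44). The covariate did not overlap between the genotypes in ABC, so that fit cannot tell it from the genotype. S1pr2 also gave -0.029 on exon reads and -0.083 to 3.65 with libraries left out, and Mybl1 -0.50 to 0.24. Gna13 in ABC gave -0.25 with relative log expression, -0.13 by DESeq2, -1.24 on exon reads, -0.975, -0.998 and -0.975 on 3 log2(TPM) scales, -0.037 in the fit over 12 groups and -0.34 to 0.90 with libraries left out. Eaf2 in ABC gave 1.12 by voom, 3.28 on exon reads, 1.47, 2.16 and 1.47 on 3 log2(TPM) scales, 1.05 by voom with a random animal block, 1.14 with the replicate block and -0.99 to 1.58 with libraries left out. Within Follicular, Bcl6 (-0.41) gave 0.52 with the covariate, and S1pr2 (0.94) gave -0.18 by voom and -0.42 by voom with a random animal block. Mybl1 there (-0.17) gave 0.056 on exon reads, 0.94 with the covariate and -1.45 to 0.20 with libraries left out. Within MarginalZone, Fas (-0.33) gave -1.23 to 0.25 with libraries left out, and Gna13 (0.24) gave -0.25 on exon reads, -0.97 and -1.01 on 3 log2(TPM) scales and -0.18 to 0.63 with libraries left out. Within Plasma, on 3 log2(TPM) scales, Fas (0.51) gave -0.20, Plxnb2 (0.64) gave -0.070 and -0.0073, and Gna13 (0.10) gave -0.69 and -0.73; Fas gave -0.29 with the covariate. In the average over subsets, Mybl1 (0.18) gave -0.038 to 0.36 and Gna13 (0.067) gave -0.0060 to 0.18 with single animals left out, and Gna13 gave -0.22 on exon reads.

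With the replicate number as a block, 9 members were called in wt GC against Immature, 6 against wt ABC, where Bcl6 was not (adjusted p = 0.0509, edgeR), and 6 in the genotype comparison within Immature, where only 2 numbers are shared (correlation 0.45). The replicate block left the count of called members as it was in every other comparison. Same-numbered libraries were from the same animal for all 3 pairs of wt GC and Immature, 2 of 3 of wt GC and Plasma, and 1 of 3 of 1Mek2 GC with MarginalZone and with Plasma, and for no other pair. Relative log expression in place of TMM shifted the median of all genes by -0.15 in wt GC against Immature, where 285 genes were called higher and 168 lower in place of 443 and 153, by -0.36 against wt ABC and by -0.37 between genotypes in ABC. Groups of 3 or 4 libraries and a depth as low as 7883989 counts limit what can be detected, and members near 0 counts have no reliable fold.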
